A study of Macaca radiata with 6 samples.

Results

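The caspases and the tumour necrosis factor (TNF) superfamily were followed in the bonnet monkey (Macaca radiata) corpus luteum after prostaglandin F2alpha (PGF2alpha). Members that signal death and members that do not were both included. The members were all probe sets whose single annotated symbol was a caspase, a TNF superfamily ligand or receptor, a TRAF adaptor or a BIRC protein, together with FAS, FASLG, TNF, FADD, TRADD, RIPK1, RIPK3, CFLAR and XIAP. The choice used gene symbols and no measured value, but it was made with earlier results of these data known. It gave 87 of the 52865 probe sets on the array, for 48 of 14132 named genes. The 48 genes were 11 ligands, 15 receptors, 8 adaptors or kinases, 5 inhibitors, 3 initiator caspases, 1 executioner caspase, 3 inflammatory caspases and 2 other caspases. CASP9, XIAP, FADD, RIPK1, TNFRSF1A and BIRC5, which the same choice would cover, are not analysed here.

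The PGF2alpha group comprised 3 arrays from female monkeys given PGF2alpha intramuscularly (3 injections, stated dose 59 µg/kg body weight) on day 10 of the luteal phase. The vehicle group comprised 3 arrays from female monkeys given phosphate-buffered saline on the same luteal day. In both groups the corpus luteum was taken 24 h later, and its total RNA was hybridised to Affymetrix Rhesus arrays, whose probes were designed for another macaque. The labels name no genotype or age and tie no array to an animal, and every p-value here covers the spread between 6 samples whose animals are not identified. In whole tissue, fewer cells of a type and less RNA per cell cannot be told apart.

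As background, ligands of the TNF superfamily bind trimeric receptors. Several of the receptors that carry a death domain recruit FADD or TRADD and activate the initiator caspases CASP8 and CASP10, which cleave executioner caspases. Other receptors of the family lack a death domain and signal through TRAF proteins to NF-kappaB and to stress kinases, and a few are decoys that bind ligand without signalling. CFLAR competes with CASP8 at the receptor, and BIRC proteins restrain caspases or receptor complexes. The corpus luteum is the ovarian gland that secretes progesterone, and the loss of its cells by apoptosis is a known part of its regression.

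Of 61 member probe sets bright enough to be tested, 7 passed the threshold of 0.05 on the adjusted p-value, with 6 higher and 1 lower after PGF2alpha. These belonged to 6 of 35 tested genes. The decoy receptor TNFRSF11B, the receptors TNFRSF12A and TNFRSF21, the inflammatory caspase CASP4 and the adaptor TRAF7 rose, and the executioner caspase CASP6 fell. None of the tested ligands, inhibitors or initiator caspases passed. Differences were tested with limma on log2(signal + 40), so that the change of a dim gene is understated, and p-values were adjusted by the Benjamini-Hochberg method over all tested probe sets. Testing was limited to probe sets that reached the array median in 3 or more of the 6 arrays, and each gene is given by the brightest of its tested probe sets on average.

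The called share was 11.5% of member probe sets, beside 5.01% of all 26944 tested probe sets (3.02% higher and 1.99% lower). By gene it was 17.1% of members, beside 6.07% of all 9980 tested named genes (3.76% higher and 2.31% lower). The median log2 fold change over the 35 genes was 0.10, against -0.02 over all named genes, and its median size without sign was 0.27 against 0.24. The groups did not overlap in 12 of the 35 genes (34.3%), a share near the 30.9% of all named genes, and in 34.4% of the member probe sets against 26.8% of all probe sets. An unadjusted limma p under 0.05 was found in 7 of the 35 genes, beside 2426 of all 9980 named genes. By probe set it was found in 16 of the 61 members, beside 5664 of all 26944. The number of called member probe sets was 3 without PGF2alpha replicate 1, 2 without PGF2alpha replicate 2, 11 without PGF2alpha replicate 3 and 3 without vehicle replicate 6. Called member genes numbered 2, 1 and 2 without PGF2alpha replicate 1, PGF2alpha replicate 2 and vehicle replicate 6. The share of all tested probe sets called moved in the same direction in these fits, from 5.01% with all 6 arrays. It was 1.35%, 0.828% and 7.06% without PGF2alpha replicates 1, 2 and 3, and 1.61% without vehicle replicate 6. The fall in calls without single arrays was thus not limited to the members.

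**Figure D1:**
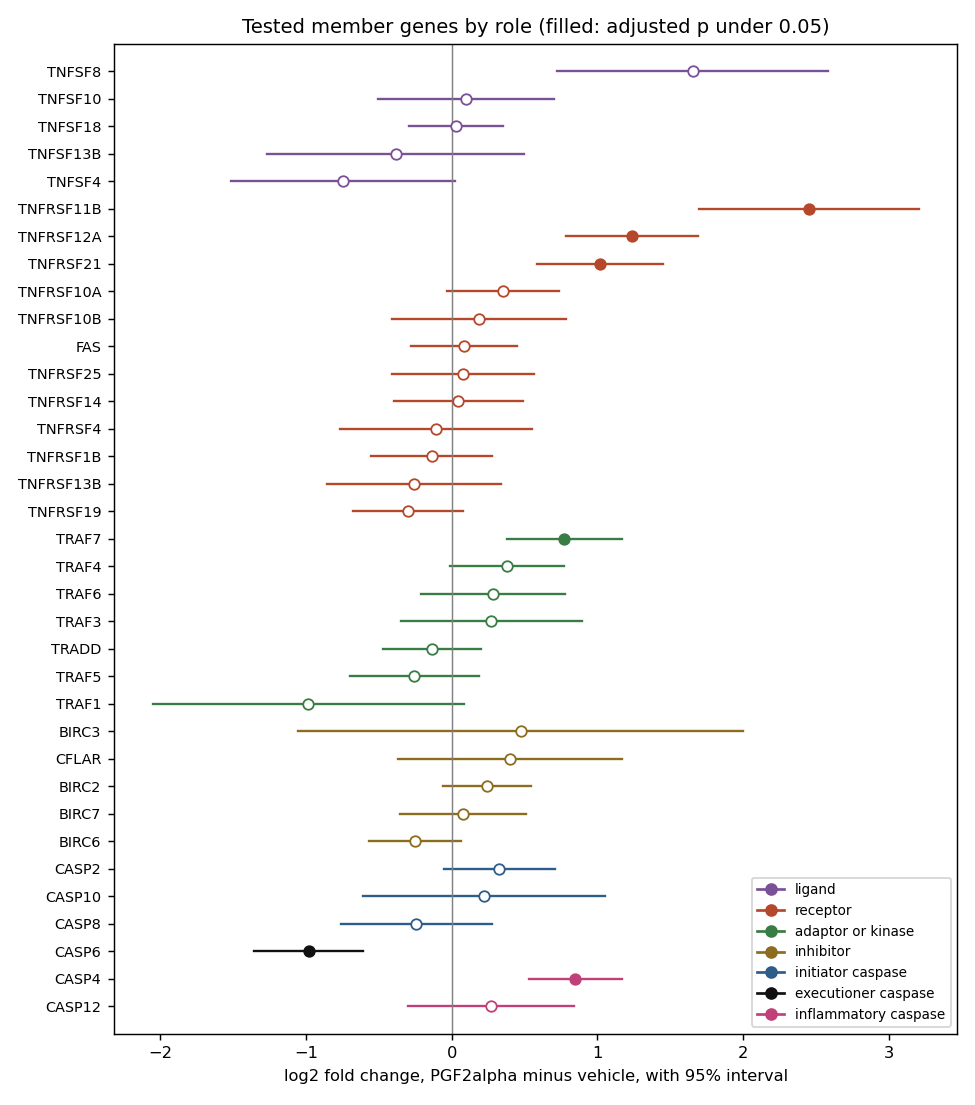
Log2 fold change, PGF2alpha minus vehicle, of the 35 tested member genes grouped by role, with bars for the 95% interval and filled points for an adjusted p under 0.05. The 3 filled receptors lie between 1.02 and 2.45, TRAF7 and CASP4 lie at 0.77 and 0.85, and CASP6 at -0.98 is the only filled point below 0.

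Among receptors, 3 of 12 tested genes rose and 0 fell. TNFRSF11B encodes osteoprotegerin, a secreted decoy that binds the ligands RANKL (TNFSF11) and TRAIL (TNFSF10). Its brighter probe set (MmugDNA.5860.1.S1_at) gave signals of 2336, 2178 and 891 in PGF2alpha replicates 1, 2 and 3, against 334, 268 and 219 in vehicle replicates 4, 5 and 6. All 3 treated arrays lay above all 3 vehicle arrays, and PGF2alpha replicate 3 was the lowest of the treated arrays. The mean was 1801 ± 793 after PGF2alpha and 273.5 ± 57.5 after vehicle (SD, n = 3 each), a log2 fold change of 2.45 (SE 0.335, limma adjusted p = 0.00839, 95% interval 1.70 to 3.21). This was the 34th largest change, in either direction, among the 9980 named genes. The other probe set of TNFRSF11B (MmuSTS.4661.1.S1_at) read 1659, 2435 and 746 after PGF2alpha and 207, 177 and 131 after vehicle, with a log2 fold change of 2.83 (limma adjusted p = 0.00674). TNFRSF11B was the only member gene whose call held without each array in turn, with an adjusted p of at most 0.0453.

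TNFRSF12A, the receptor of the cytokine TWEAK, which carries no death domain, was at 6433, 8121 and 5691 in the PGF2alpha arrays and at 3609, 2710 and 2265 in the vehicle arrays. The groups did not overlap, and the lowest treated array (5691) was well above the highest vehicle array (3609). Its log2 fold change was 1.24 (SE 0.200, limma adjusted p = 0.0133, 95% interval 0.78 to 1.69). The call was lost without PGF2alpha replicate 2 (adjusted p = 0.0603), and it stood at the threshold without vehicle replicate 6 (adjusted p = 0.05003).

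TNFRSF21, a receptor with a death domain also known as DR6, was at 4503, 4390 and 3657 after PGF2alpha and at 2445, 1530 and 2246 after vehicle. Again no vehicle array reached a treated array. Its log2 fold change was 1.02 (SE 0.193, limma adjusted p = 0.0226), read from its single probe set, whose suffix marks it as able to match several transcripts. The adjusted p for TNFRSF21 was 0.0813, 0.0916 and 0.0604 without PGF2alpha replicate 1, PGF2alpha replicate 2 and vehicle replicate 6, and 0.0524 in a fit without a variance trend.

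The receptors through which FASLG and TRAIL signal death did not pass. FAS, the receptor of FASLG, was at 494, 500 and 568 after PGF2alpha and at 550, 473 and 447 after vehicle, so the groups overlapped. Its log2 fold change was 0.08, with a 95% interval of -0.28 to 0.45. TNFRSF10A, a TRAIL receptor with a death domain, was at 877, 791 and 835 after PGF2alpha and at 719, 710 and 520 after vehicle. These groups did not overlap, but the log2 fold change of 0.35 had a limma adjusted p of 0.275, and its dimmer probe set read 0.74 (adjusted p = 0.119). TNFRSF10B, the other TRAIL receptor with a death domain, was dim, with signals from 117 to 192 after PGF2alpha and from 112 to 133 after vehicle (log2 fold change 0.19, adjusted p = 0.746). TNFRSF1B, the TNF receptor without a death domain, had a log2 fold change of -0.14, and its 3 probe sets ran from -0.14 to 0.55. The other tested receptors were TNFRSF25, TNFRSF14, TNFRSF4, TNFRSF13B and TNFRSF19, at 0.08, 0.05, -0.11, -0.26 and -0.30 on the log2 scale. Of these, TNFRSF25 carries a death domain, TNFRSF14 and TNFRSF4 are costimulatory receptors of lymphocytes, and TNFRSF13B is a receptor of B cells.

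**Figure D2:**
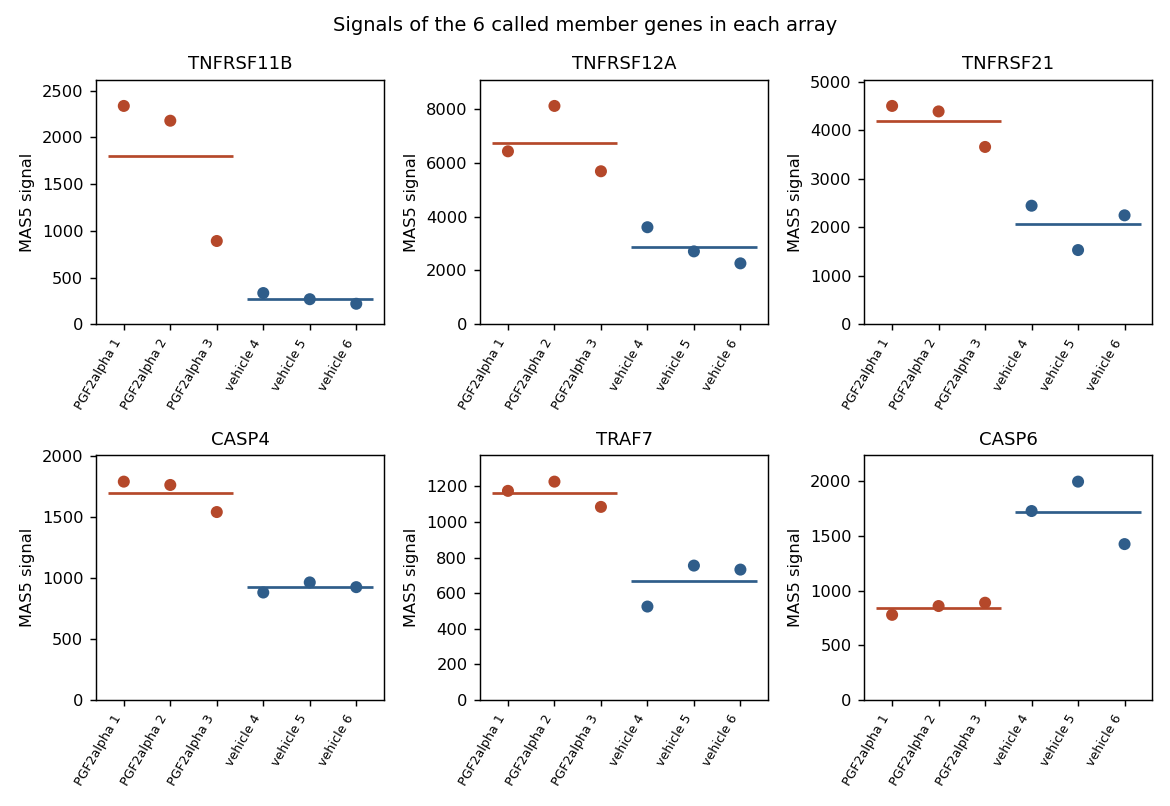
MAS5 signal, on linear axes from 0, of the 6 called member genes in each of the 6 arrays, with a line at the mean of each group of 3 arrays. The 3 PGF2alpha arrays lie above the 3 vehicle arrays in the first 5 genes and below them in CASP6, and PGF2alpha replicate 3 is the treated array nearest to the vehicle arrays in all 6.

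Among adaptors and kinases, 1 of 7 tested genes rose and 0 fell. TRAF7, a TRAF protein with a ubiquitin ligase domain that acts with the kinase MAP3K3, was at 1175, 1227 and 1085 in the PGF2alpha arrays and at 525, 755 and 732 in the vehicle arrays. The groups did not overlap, and vehicle replicate 4 was the lowest array. Its log2 fold change was 0.77 (SE 0.175, limma adjusted p = 0.0394). Its dimmer probe set read 0.14 (adjusted p = 0.681), with overlapping groups. Leaving out PGF2alpha replicate 1 or 2 ended the call for TRAF7 (adjusted p = 0.116 and 0.134), as did leaving out vehicle replicate 4, 5 or 6 (0.105, 0.0597 and 0.0962). It was also lost without the brightness filter (adjusted p = 0.0606) and without a variance trend (adjusted p = 0.0718).

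The other adaptors did not pass. TRAF4 was at 738, 549 and 681 after PGF2alpha and at 513, 535 and 431 after vehicle, without overlap (log2 fold change 0.38, limma adjusted p = 0.251). TRAF1, which binds BIRC2 and BIRC3, was at 23.4, 136 and 12.5 after PGF2alpha and at 110, 144 and 124 after vehicle. It was low in PGF2alpha replicates 1 and 3 alone, and its log2 fold change of -0.98 had a 95% interval of -2.05 to 0.09 (adjusted p = 0.275). TRAF6, a ubiquitin ligase also used by Toll-like receptors, TRAF3, a brake on noncanonical NF-kappaB signalling, and TRAF5 had log2 fold changes of 0.28, 0.27 and -0.26. TRADD, which carries the signal of TNF from its death domain receptor, was at 573, 517 and 528 after PGF2alpha and at 626, 560 and 604 after vehicle, with overlap. Its log2 fold change was -0.14, with a 95% interval of -0.47 to 0.20.

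CASP6, the only executioner caspase tested here, fell. Executioner caspases cleave structural proteins, and CASP6 is known for cutting nuclear lamins. Its probe set (MmuSTS.3287.1.S1_at) was at 779, 860 and 890 in the PGF2alpha arrays, against 1729, 1998 and 1427 in the vehicle arrays. All treated arrays lay below all vehicle arrays, and the treated arrays were close to each other. The mean was 843 ± 57.3 after PGF2alpha and 1718 ± 286 after vehicle (SD, n = 3 each), a log2 fold change of -0.98 (SE 0.165, limma adjusted p = 0.0151, 95% interval -1.36 to -0.61). The change was -0.99 and -0.98 within hybridisation runs 1 and 2. Leaving out PGF2alpha replicate 1 or 2 ended the call for CASP6 (adjusted p = 0.0602 and 0.0610), while the log2 fold change stayed between -1.11 and -0.87.

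Of the inflammatory caspases, CASP4, which senses bacterial lipopolysaccharide in the cytosol and cleaves gasdermin D, rose. Its brighter probe set (MmugDNA.24199.1.S1_at) was at 1791, 1764 and 1542 after PGF2alpha and at 881, 964 and 926 after vehicle. The spread within each group was small beside the gap between the groups. The log2 fold change was 0.85 (SE 0.142, limma adjusted p = 0.0148, 95% interval 0.53 to 1.17). The dimmer probe set of CASP4 was at 926, 981 and 872 after PGF2alpha and at 731, 595 and 762 after vehicle, also without overlap, with a log2 fold change of 0.40 (adjusted p = 0.186). The call for CASP4 was lost without PGF2alpha replicate 1 (adjusted p = 0.0603), PGF2alpha replicate 2 (adjusted p = 0.0652) and vehicle replicate 6 (adjusted p = 0.0600). CASP12, a relative of CASP1 and CASP4 best known in mice, was at 1443, 786 and 679 after PGF2alpha and at 739, 762 and 766 after vehicle, so that PGF2alpha replicate 1 alone stood above the other arrays (log2 fold change 0.27, adjusted p = 0.595). Without that array the value for CASP12 was -0.05.

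Initiator caspases did not pass in limma, with 0 of 3 tested genes called and 0 of 3 at an unadjusted p under 0.05. Of their 5 tested probe sets 1, the dimmer of CASP8, had an unadjusted p under 0.05. CASP8, which the death receptors activate, was at 451, 530 and 620 after PGF2alpha and at 701, 447 and 809 after vehicle. The groups overlapped through vehicle replicate 5. The log2 fold change of CASP8 was -0.24, with a 95% interval of -0.76 to 0.27 (limma adjusted p = 0.599). The dimmer probe set of CASP8 was at 207, 354 and 356 after PGF2alpha and at 502, 426 and 487 after vehicle, without overlap, and read -0.60 (adjusted p = 0.159). CASP2, an initiator of stress-induced death, was at 788, 787 and 659 after PGF2alpha and at 618, 655 and 492 after vehicle, which is close but without overlap (log2 fold change 0.33, adjusted p = 0.314). CASP10, the relative of CASP8, was near the array medians at 78.7, 129 and 167 after PGF2alpha and at 49.99, 147 and 116 after vehicle, with overlapping groups (0.22, adjusted p = 0.790).

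The inhibitors also gave no call, with 0 of 5 genes called by limma and 0 of 5 at an unadjusted p under 0.05. Of their 13 tested probe sets 5 had an unadjusted p under 0.05, beside 5664 of all 26944 tested probe sets. CFLAR, the decoy homologue of CASP8 known as FLIP, had 4 tested probe sets, whose log2 fold changes were 0.40, 0.42, 0.48 and 0.70, with adjusted p from 0.225 to 0.553. Its brightest probe set was at 779, 1688 and 1424 after PGF2alpha and at 1204, 558 and 1168 after vehicle, with overlap. The 4 probe sets of BIRC2, a ubiquitin ligase of TNF receptor complexes, did not share a sign. The brightest of BIRC2 was at 7559, 9791 and 8127 after PGF2alpha and at 7105, 7045 and 7247 after vehicle, without overlap (log2 fold change 0.24, adjusted p = 0.349), and the others read 0.48, -0.16 and -0.42. In BIRC6, a very large inhibitor that also conjugates ubiquitin, the brighter probe set was at 1485, 1388 and 1610 after PGF2alpha and at 1858, 1660 and 1850 after vehicle, without overlap (-0.25, adjusted p = 0.342), while the dimmer read 0.38 (adjusted p = 0.234). BIRC7, a relative known from melanoma as livin, had a log2 fold change of 0.07.

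BIRC3, the NF-kappaB induced relative of BIRC2, was high in a single array. Its brighter probe set was at 367, 2500 and 233 in PGF2alpha replicates 1, 2 and 3 and at 417, 359 and 539 in the vehicle arrays. A second probe set of BIRC3 was at 124, 726 and 128 after PGF2alpha and at 158, 147 and 160 after vehicle. The untested probe set of BIRC3 was likewise highest in PGF2alpha replicate 2, at 179, with 11.2 and 42.7 in the other treated arrays and 21.7, 28.9 and 116 in the vehicle arrays. All 3 probe sets thus put PGF2alpha replicate 2 on top, and PGF2alpha replicates 1 and 3 lay below the lowest vehicle array in the second. Between the groups the log2 fold change of BIRC3 was 0.47, with a 95% interval of -1.05 to 2.002 (limma adjusted p = 0.752), the widest interval among the 35 genes. TNFSF15, a ligand of TNFRSF25 that was too dim to be tested, was also highest in PGF2alpha replicate 2, at 492, with 102 and 31.7 in PGF2alpha replicates 1 and 3 and 26.2, 113 and 77.4 in the vehicle arrays.

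Ligands gave no call either, with 0 of 5 tested genes called by limma and 1 of 5 at an unadjusted p under 0.05. That gene was TNFSF8, the CD30 ligand of activated T cells and macrophages. TNFSF8 was at 859, 449 and 198 after PGF2alpha and at 124, 108 and 98.5 after vehicle. The groups did not overlap, but the treated arrays spread over a wide range, with PGF2alpha replicate 3 nearest to the vehicle arrays. The log2 fold change was 1.65 (SE 0.411, limma adjusted p = 0.0535, 95% interval 0.73 to 2.58). TNFSF8 passed under 3 of the alternatives, which were array weights (adjusted p = 0.0284), array scaling to one median (0.0494) and the omission of PGF2alpha replicate 3 (0.00512), and in no other alternative that tested it.

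TNFSF4, the OX40 ligand, was at 437, 504 and 1289 after PGF2alpha and at 1000, 1237 and 1185 after vehicle. PGF2alpha replicates 1 and 2 were low, and PGF2alpha replicate 3 exceeded every vehicle array. The log2 fold change was -0.75 (limma adjusted p = 0.252), and without PGF2alpha replicate 3 it was -1.21 (adjusted p = 0.00727). TNFSF13B, the B cell survival factor BAFF, was at 1096, 1274 and 1972 after PGF2alpha and at 2549, 900 and 2696 after vehicle. Vehicle replicate 5 was the lowest of the 6 arrays, and its dimmer probe set repeated this order, with 510 in vehicle replicate 5 beside 2023 and 2110 in vehicle replicates 4 and 6. TNFSF13B had a log2 fold change of -0.38, with a 95% interval of -1.27 to 0.50.

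TNFSF10, the death ligand TRAIL, was at 2670, 2915 and 1343 after PGF2alpha and at 2214, 1798 and 2138 after vehicle. Treated arrays lay on both sides of the vehicle arrays, and the 3 tested probe sets read 0.10, 0.20 and 0.28 (limma adjusted p from 0.547 to 0.880). TNFSF18, the ligand of the lymphocyte receptor GITR, was at 5984, 7024 and 5348 after PGF2alpha and at 5509, 6249 and 6154 after vehicle. Its log2 fold change was 0.03, with a 95% interval of -0.29 to 0.35, the narrowest among the ligands.

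**Figure D3:**
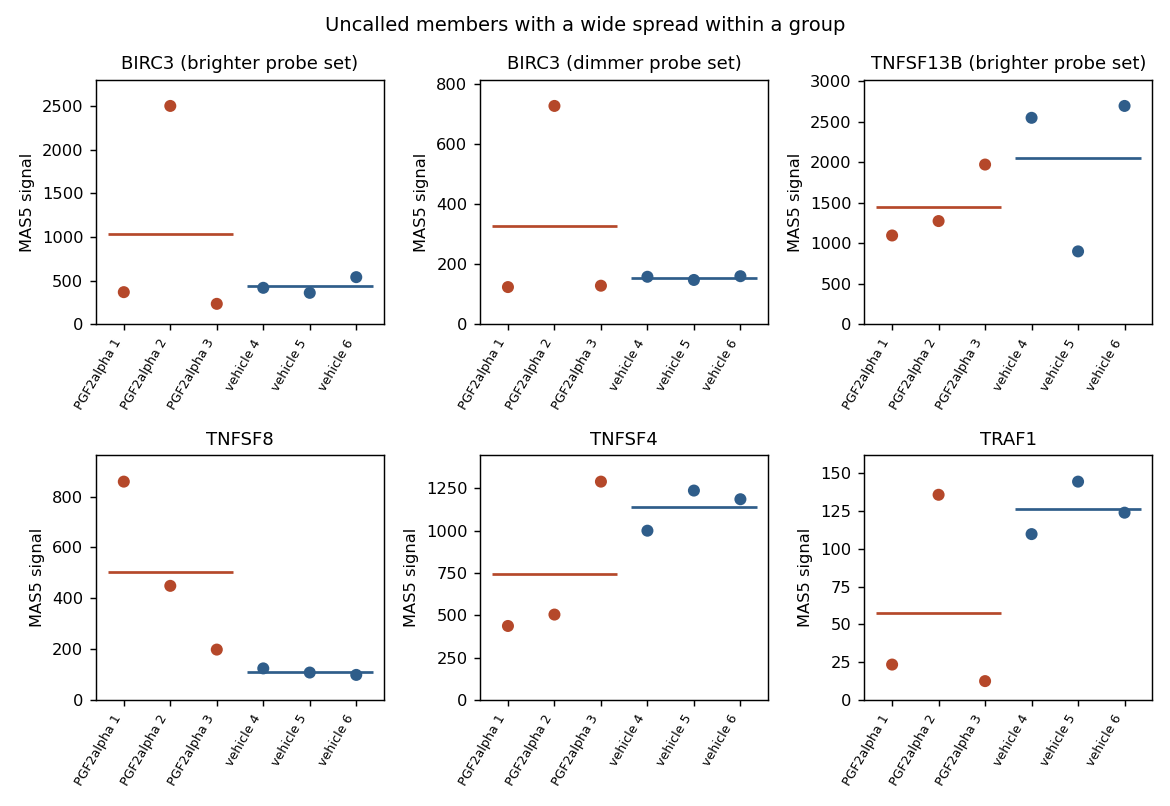
MAS5 signal, on linear axes from 0, of 5 member genes that did not pass, in each of the 6 arrays, with a line at the group mean. BIRC3 is high in PGF2alpha replicate 2 in both tested probe sets (2500 and 726), TNFSF13B is low in vehicle replicate 5 (900), TNFSF4 is low in PGF2alpha replicates 1 and 2, TRAF1 is low in PGF2alpha replicates 1 and 3, and TNFSF8 spreads from 198 to 859 in the PGF2alpha arrays.

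Of the 87 member probe sets, 26 stayed below the brightness filter, and 13 genes had no tested probe set. These were the ligands FASLG, TNF, TNFSF9, TNFSF11, TNFSF14 and TNFSF15, the receptors TNFRSF13C, TNFRSF17 and TNFRSF18, the kinase RIPK3 and the caspases CASP5, CASP14 and CASP16. The medians of the arrays lay between 115 and 134. FASLG, the ligand that cytotoxic lymphocytes use to kill through FAS, was at 32.6, 43.2 and 41.6 after PGF2alpha and at 9.52, 13.8 and 54.4 after vehicle. TNF was at 48.7, 34.8 and 27.6 after PGF2alpha and at 58.4, 14.4 and 59.4 after vehicle. Both were below the median of the array in all 6 arrays, with overlapping groups, so no difference in FASLG or TNF was measurable at these signals. RIPK3, a kinase of necroptosis, was at 141, 211 and 82.5 after PGF2alpha and at 99.5, 15.4 and 33.2 after vehicle, and it reached the array median in PGF2alpha replicates 1 and 2 only. TRAF1, CASP10 and TNFRSF10B passed the filter with exactly 3 arrays. No representative probe set passed it through the arrays of 1 group alone, but the dimmer tested probe set of TNFRSF19 passed through the vehicle arrays only. It was at 103, 98.6 and 104 after PGF2alpha and at 158, 141 and 154 after vehicle. It is counted among the 61 tested probe sets and among those without overlap, and its lower level is not independent of the filter.

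Probe sets of the same gene could be compared in 19 genes. In 14 of them all tested probe sets had the same sign, and in 5 (BIRC2, BIRC6, TNFRSF1B, TRAF3 and FAS) they did not. The 14 include TNFRSF19, whose dimmer probe set was tested only through the vehicle arrays. The distance between the lowest and the highest log2 fold change of a gene had a median of 0.33 and was largest in BIRC2, at 0.90. Among the called genes with another tested probe set, TNFRSF11B was called in both probe sets, and CASP4 and TRAF7 in the brighter one of each. TNFRSF12A, TNFRSF21 and CASP6 each rested on 1 probe set.

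**Figure D4:**
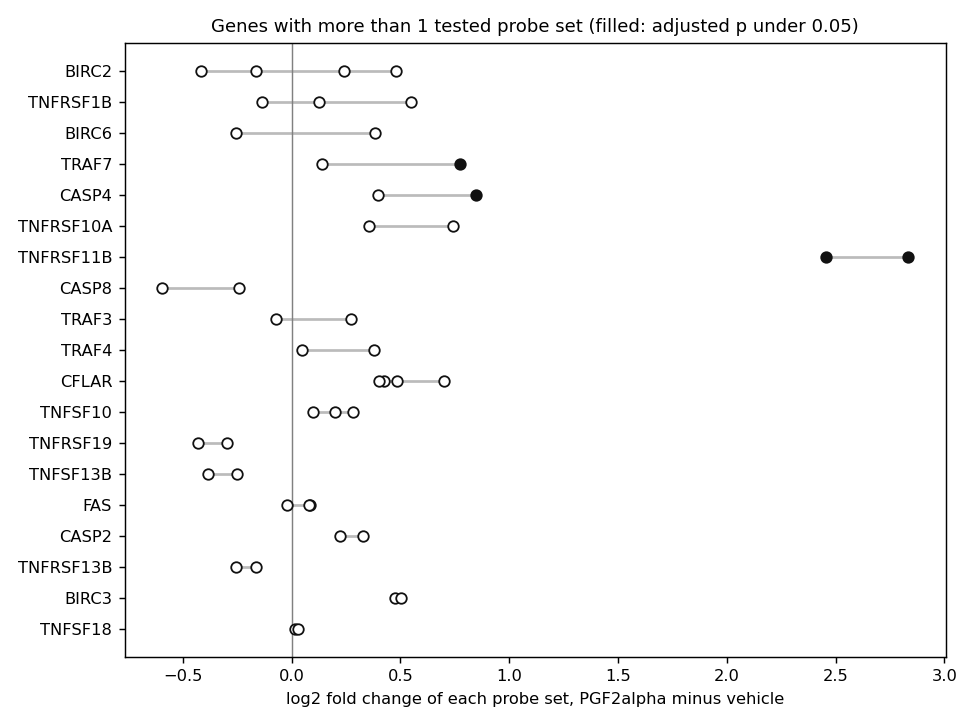
Log2 fold change, PGF2alpha minus vehicle, of each tested probe set of the 19 member genes with more than 1, ordered by the distance between a gene's probe sets, with filled points for an adjusted p under 0.05. TNFRSF11B has both points filled, at 2.45 and 2.83, while the 4 probe sets of BIRC2 run from -0.42 to 0.48.

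The treated arrays did not differ equally from the vehicle arrays. The deviation of the 35 genes from the vehicle mean, without sign, had a median of 0.38, 0.36 and 0.22 on the log2 scale in PGF2alpha replicates 1, 2 and 3. PGF2alpha replicate 3 was the treated array nearest to the vehicle mean in 18 of the 35 genes and in all 6 called genes, against 12 genes for replicate 1 and 5 for replicate 2. All 6 called genes kept their sign within each hybridisation run, where PGF2alpha replicate 2 and vehicle replicate 4 made up run 2 and the other arrays made up run 1. The values within runs 1 and 2 were 2.40 and 2.57 for TNFRSF11B, 1.27 and 1.16 for TNFRSF12A, 1.11 and 0.83 for TNFRSF21, 0.79 and 0.97 for CASP4, and 0.58 and 1.17 for TRAF7.

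**Figure D5:**
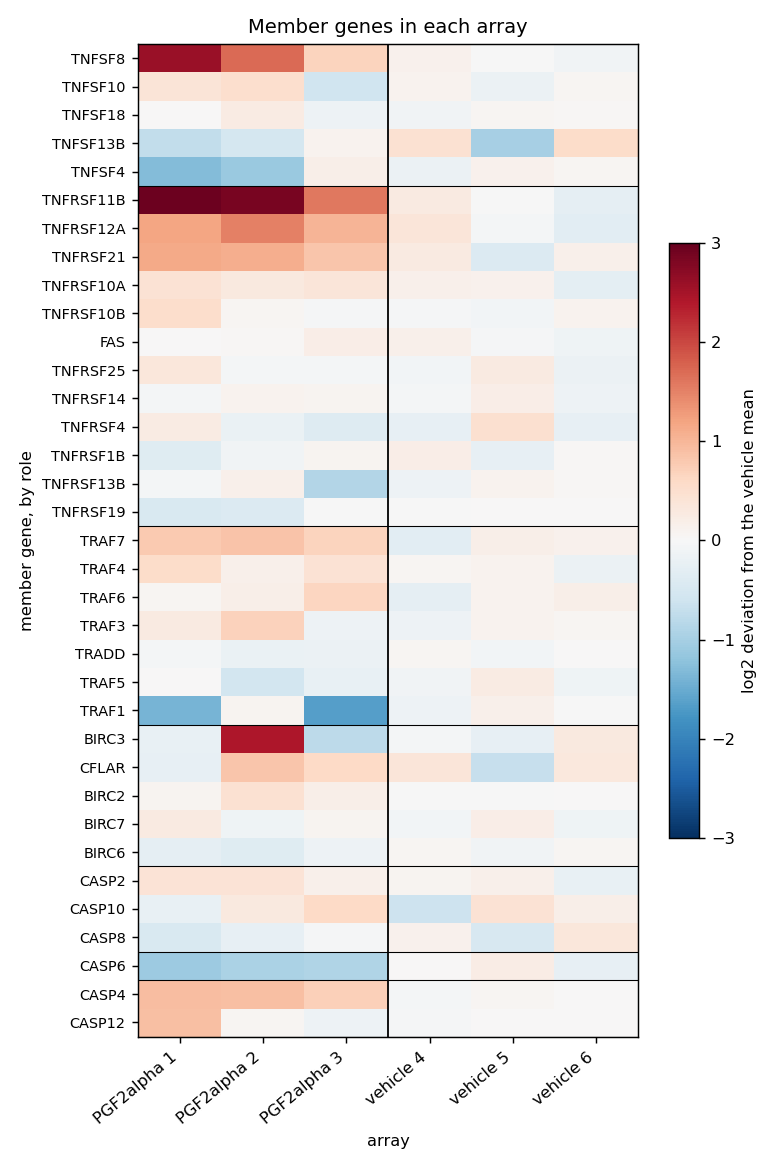
Log2 deviation of each tested member gene from its vehicle mean, by array (columns) and by gene grouped by role (rows), with red above and blue below the vehicle mean. TNFRSF11B and TNFSF8 are palest in PGF2alpha replicate 3 among the treated arrays, and BIRC3 is dark in PGF2alpha replicate 2 alone.

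Other genes of these pathways were taken from lists outside the members. Of 72 tested genes in 5 lists, 3 rose and 0 fell (4.17%, beside 6.07% of all named genes), with a median log2 fold change of 0.03. In the inflammasome and pyroptosis list 2 of 12 genes rose and 0 fell, and the list's median was 0.28. PYCARD, the adaptor that joins inflammasome sensors to CASP1, was at 1158, 1748 and 542 after PGF2alpha and at 223, 219 and 309 after vehicle (log2 fold change 1.90, limma adjusted p = 0.0221). GSDME, a pore-forming gasdermin that executioner caspases cleave, was at 2112, 2222 and 1144 after PGF2alpha and at 452, 679 and 421 after vehicle (1.71, adjusted p = 0.0126). In both genes no vehicle array reached a treated array, and PGF2alpha replicate 3 was the lowest treated array. IL18, a cytokine that CASP1 and CASP4 process, was at 738, 2405 and 665 after PGF2alpha and at 546, 611 and 367 after vehicle, without overlap and highest in PGF2alpha replicate 2 (1.04, adjusted p = 0.205).

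Among ligand shedding and receptor accessory genes, 1 of 21 rose and 0 fell. It was NGFR, the neurotrophin receptor of the TNF receptor superfamily, which carries a death domain and whose symbol lies outside the members' choice. NGFR was at 17869, 19253 and 18345 after PGF2alpha and at 5834, 3388 and 7572 after vehicle. The treated arrays were close to each other and far above the vehicle arrays (log2 fold change 1.79, limma adjusted p = 0.00899). The other probe set of NGFR was dim and not tested. The largest fall in this list was that of PIDD1 (-0.77, limma adjusted p = 0.0725), lower without overlap. Other tested probe sets of PIDD1 read -0.44 and -0.22, with overlapping groups. Of the 21 genes 11 had a positive change.

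In the list from TNF receptors to NF-kappaB limma called 0 of 25 genes, with a median of 0.05. The unadjusted p was under 0.05 in 8 of the 25, beside 2426 of all 9980 tested named genes. The smallest p in the list belonged to RELB, a subunit of NF-kappaB (0.64, adjusted p = 0.0754), TNFAIP8 (1.20, adjusted p = 0.0972) and the kinase IKBKB (0.50, adjusted p = 0.102). The other tested probe sets of IKBKB did not share a sign, at -0.65, -0.41, 0.66 and 0.72. Those of TNFAIP8 read 0.43 and 0.46, with overlapping groups. In the mitochondrial death list limma called 0 of 12, with 4 at an unadjusted p under 0.05 and a median of -0.09. Those 4 were all higher, and 5 of the 12 genes had a positive change. HTRA2, a mitochondrial protease that binds BIRC proteins once released, was at 0.63 (adjusted p = 0.0673). STK24 was at 0.41 (adjusted p = 0.0988) and LMNA at 0.50 (adjusted p = 0.102). Other tested probe sets of LMNA read 0.07, 0.08, 0.21, 0.43 and 0.52, with overlapping groups in all but the last. Those of STK24 read 0.25 and 0.33, and those of HTRA2 0.23 and 0.62, with overlap in the lower of each. APAF1, the core of the apoptosome, was at 0.58 (adjusted p = 0.195), with overlapping groups. Its other tested probe set read 0.16, also with overlap. In the necroptosis list 0 of 2 were called and 0 of 2 had an unadjusted p under 0.05, with MLKL, the pore-forming substrate of RIPK3, at -0.15 (adjusted p = 0.674).

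Markers of some cell types moved with the groups, and those of others did not. Of 12 tested macrophage and monocyte markers 6 rose and 0 fell (median 0.99), and their summed signal was 48957 to 81010 in the PGF2alpha arrays and 20259 to 34023 in the vehicle arrays, lowest in vehicle replicate 5. MARCO, 1 of the 6, was tested only because its PGF2alpha arrays were bright, and without it 5 of 11 rose (median 0.93). Of 6 neutrophil markers on the array only 2 were bright enough to be tested, and both rose. Their summed signals were 4634 to 16962 after PGF2alpha and 71.3 to 244 after vehicle. In vehicle replicate 5 the sum of both (71.3) was below the median of the array (134). Of 5 T and NK lymphocyte markers 1 rose, GNLY, with a summed signal over the 5 of 28080 to 44562 after PGF2alpha and 14477 to 18008 after vehicle. Without GNLY the summed signals of the other 4 overlapped, at 12525 to 18117 after PGF2alpha and 11154 to 16035 after vehicle. GZMA, a granzyme of cytotoxic lymphocytes, was at 1953, 1183 and 1940 after PGF2alpha and at 2616, 3584 and 2873 after vehicle, lower without overlap (log2 fold change -0.85, limma adjusted p = 0.0584). The single tested B cell marker CD79B was at -0.30. Of 8 endothelial markers 1 rose (summed signal 23061 to 33478 after PGF2alpha and 23684 to 27624 after vehicle), and of 5 fibroblast and pericyte markers 1 rose (70503 to 87389 after PGF2alpha and 53036 to 73510 after vehicle). STAR, the cholesterol carrier of steroid synthesis, was bright in every array, at 33832, 36465 and 50313 after PGF2alpha and 58817, 71945 and 59423 after vehicle. No other tissue was compared, so the tissue label was not tested. The 6 tested markers of luteal steroid-producing cells had a median of -0.72 with 1 lower, STAR, and a summed signal of 74094 to 130330 after PGF2alpha and 145730 to 174870 after vehicle. PGF2alpha replicate 3 was the treated array with the highest luteal sum and the lowest neutrophil sum. No tested marker was at 0. The brightness filter largely fixed this in advance, so it does not show which cell types were present. The part of these cells in the changes of TNFRSF11B, TNFRSF12A, TNFRSF21, CASP4, TRAF7 and CASP6 was not tested. The ratio of 3-prime to 5-prime control signals did not separate the groups for beta-actin (0.82 after PGF2alpha and 0.79 after vehicle on the log2 scale, exact permutation p = 1) or GAPDH (0.42 after PGF2alpha and 0.47 after vehicle, exact permutation p = 0.60), where the smallest p that 3 against 3 arrays allow is 0.10. For beta-actin vehicle replicate 5 stood apart at 1.17, above 0.79 to 0.83 in the PGF2alpha arrays and 0.62 and 0.58 in vehicle replicates 4 and 6. For GAPDH vehicle replicate 5 was within the range of the PGF2alpha arrays, at 0.38. The part of this difference in the values of vehicle replicate 5 for TNFSF13B and CASP8 was not tested.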

How the data were processed

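The deposited values were linear intensities (MAS5 signals), 1 per probe set, per the submitters' processing notes. The authors' values had a trimmed mean of 500.0 on each of the 6 arrays (2% left out at each end) and were used without further scaling. The authors' deposited scanner settings hold other information and no expression value, and their hybridisation times placed the arrays in 2 runs. Detection calls were not used here. Names came from a platform annotation that can be old (24969 probe sets with 1 symbol, 361 with several, 27535 with none), and no sequence was used.

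The 99 control probe sets were left out, signals were converted to log2(signal + 40), with 40 close to their 25th percentile (39.6), and probe sets at or above the 50th percentile of at least 3 arrays were fitted with limma 3.58.1 in R 4.3.3 (lmFit, eBayes with trend, no covariate, two-sided, Benjamini-Hochberg over 26944 probe sets). The fit was also run on simulated data with independent noise and no differences between arrays. That run does not cover single arrays that stand apart, and its outcome is not given here. Members, lists and tests were chosen with earlier results of these data known. Values in every array were given for called genes, the 3 of smallest p in each role and a fixed set including FAS, CASP8 and CFLAR. Other members singled out, among them BIRC3, TRADD, TNFRSF10A, TNFSF18, RIPK3 and TNFSF15, and the markers GZMA and MARCO were chosen after their values were seen. The list genes STK24, LMNA and PIDD1 were also chosen after their values were seen. The number of arrays limits the precision, and the labels do not tie arrays to animals.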

Additional observations from a re-analysis of the deposited data

How the results depend on the processing

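The 6 called member genes stayed called with a pseudocount of 10 or 160, arrays scaled to one median or quantile normalized, a filter at the 70th percentile, robust estimation, array weights and the run as a block. TRAF7 was lost without the filter, TRAF7 and TNFRSF21 without a variance trend. Leaving out an array moved the count of called member probe sets from 7 to between 2 and 11, of called member genes from 6 to between 1 and 8, and the share of all tested probe sets called from 5.01% to between 0.828% and 7.06%. The direction turned in genes that did not pass: within a run CASP10 (-0.12), FAS (-0.13), TNFSF10 (-0.05) and TRAF1 (0.23) turned, BIRC2 was at -0.42 and BIRC6 at 0.38 with the probe set of smallest p, and leaving out single arrays put CASP10 between -0.0862 (without vehicle replicate 4) and 0.442, CASP12 between -0.0450 (without PGF2alpha replicate 1) and 0.477, and TNFSF10 between -0.105 and 0.443 (-0.0425 and -0.105 without PGF2alpha replicates 1 and 2). The cause was not tested. Scaling to one median moved the median of all tested probe sets by 0.04 on the log2 scale. Within run 2, which holds 1 array of each group, there is no test. No paired analysis was possible because the replicate numbers of the groups, 1 to 3 and 4 to 6, are not shared. Dim members such as FASLG and TNF were not measurable at these signals.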
